A study of Oryza sativa Indica Group with 6 samples.

Results

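SWEET proteins are membrane carriers that let sugars pass down their concentration gradient, and plants use them to release sugar from source tissues and to load it into seeds and flowers. Developing pollen lies free in the anther without cell-to-cell channels to the tissue around it, so the sugar it consumes and stores as starch must be released by the anther wall and taken up again from the anther fluid, both through carriers. The family is split into clades, of which one moves mainly sucrose and the others mainly hexoses. The genes described here are SWEET5 (gene 4339772), whose rice protein was shown to transport galactose, SWEET6A (gene 4324213), SWEET11 (gene 4346153), also named XA13 and needed for pollen fertility, and SWEET15 (gene 4329464). SWEET11 and SWEET15 belong to the sucrose clade and act together in grain filling. The 4 genes were picked because their signals had opposite patterns over pollen stages in these data, out of 17905 genes that had a probe set of their own. Their levels and differences are therefore given as a description, with no test. The RefSeq gene table named 14 SWEET genes, of which 12 were measured, and the 8 that were not picked are the rest of the family here.

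The samples were the male gametophyte of rice of the variety Guichao No.2 (Oryza sativa Indica Group), grown in the field and collected around midday in summer, at 3 stages. They were uninucleate microspores (UNM), before the first pollen mitosis, bicellular pollen (BCP), with a generative cell inside the vegetative cell, and tricellular pollen (TCP), with sperm cells. Each stage was measured in 2 biological replicates on separate Affymetrix arrays (6 in all), and the labels give no treatment or genotype beside the variety. Signals are log2 values of a probe set, the group of probes for a transcript, so that a difference of 1 is a doubling. Every mean carries its SD over the 2 arrays of a stage. Differences carry a standard error (SE) from a linear fit of all 6 arrays. The 64 probe sets for laboratory reporter genes served as background, and their 95th percentile was 5.00 to 5.84 over the 6 arrays, lowest in UNM. Pearson's r over all probe sets, which are not independent replicates, was 0.985 to 0.993 between replicate arrays. The 21 hybridization control probe sets, for bacterial transcripts spiked in, averaged 1.23 more in TCP than in BCP and 0.26 more in BCP than in UNM, so the choice of scaling bears on every comparison with TCP.

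The label of the samples was set against marker genes, from lists chosen with earlier results of these data known, so not as an independent check. Of 4 measured pollen genes, the small GTPase gene RAC6, the actin-depolymerizing factor gene ADF9 and the beta-expansin genes EXPB9 and EXPB10, all 4 rose in BCP against UNM, where 17.1% of all 17905 genes rose. A gene rose or fell if its difference was at least 1 with an adjusted p under 0.05. The mean level of the 4 was 5.02 to 5.51 in UNM, 12.36 to 12.38 in BCP and 12.44 to 12.52 in TCP. The UNM mean hides a split, since RAC6 had 9.37 and 8.97 there while ADF9, EXPB9 and EXPB10 were in the background. The UNM samples also held transcripts of marker genes of the anther wall and tapetum, the tissue that feeds the microspores: 9 of 11 measured markers were above the reporters' 95th percentile on both UNM arrays, as were 68.6% of all genes. The list for sperm and generative cells had a single measured gene, the mitotic cyclin gene CYCB1-1. It had signals of 6.57 and 6.70 in UNM, 6.09 and 6.39 in BCP and 4.50 and 4.91 in TCP. CYCB1-1 fell in TCP against BCP (-1.53, SE 0.18) and was in the background in TCP, the stage with sperm cells. Its BCP minus UNM difference was -0.39 (SE 0.18) and did not pass. As CYCB1-1 was already above background on both UNM arrays, before a generative cell is formed, its signal was not specific to those cells here. The pollen genes set UNM apart from the later stages, but no marker rose between BCP and TCP. At an unadjusted p under 0.05 in limma, 1 of the 4 pollen genes lay higher and 1 lower in TCP against BCP. In bulk samples such as these, fewer cells of a type and less RNA per cell cannot be told apart.

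Each of the 4 genes had a single probe set. That of SWEET11 is of a kind that Affymetrix designed to match several transcripts, so related transcripts may add to its signal. The gene of SWEET6A also carries the name SWEET6B in the RefSeq gene table, so its probe set cannot be assigned to either name alone. The genes fall into 3 patterns: a signal that is highest in the last stage (SWEET5), one that is high until the bicellular stage and low in the last (SWEET6A), and one that is above background in UNM alone (SWEET11 and SWEET15).

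**Figure D1:**
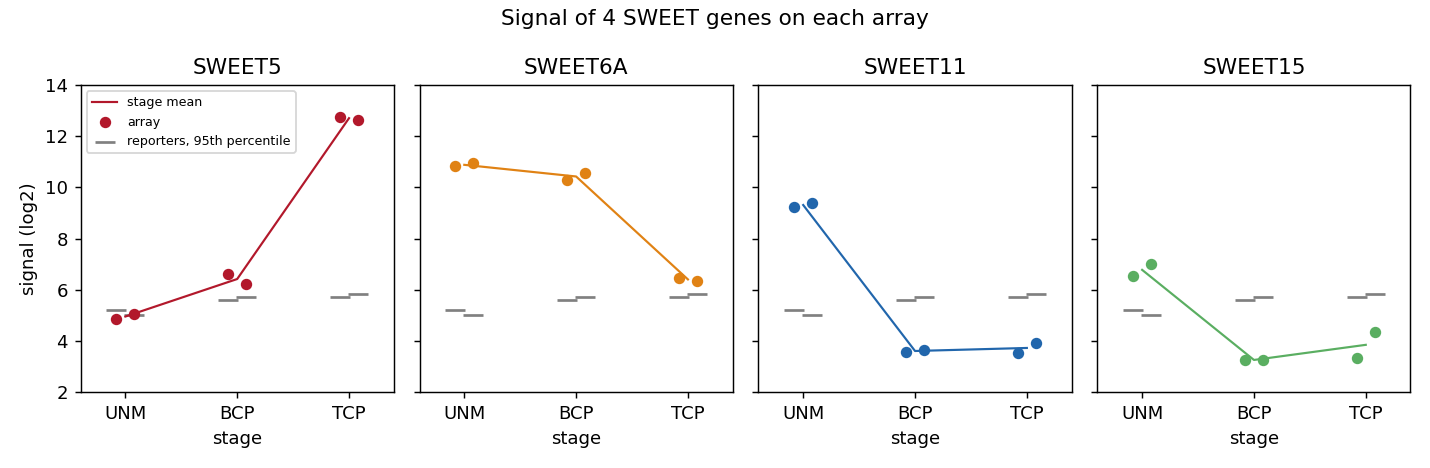
Signal (log2) of SWEET5, SWEET6A, SWEET11 and SWEET15 on each of the 6 arrays by stage. Points are arrays, lines join stage means and grey dashes mark the reporters' 95th percentile on the same array. SWEET5 reaches 12.70 in TCP, SWEET6A is at 10.43 in BCP and 6.41 in TCP, and SWEET11 and SWEET15 lie under the dashes in BCP and TCP.

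SWEET5 had signals of 4.87 and 5.04 in UNM, 6.64 and 6.21 in BCP and 12.77 and 12.64 in TCP. The 3 stages did not overlap, and the order was TCP, BCP, UNM from high to low. Only UNM replicate 2 of the UNM arrays was above the reporters' 95th percentile, so the UNM signal stood at the edge of background. The stage mean was 12.70 ± 0.09 in TCP and 6.42 ± 0.30 in BCP, a difference of 6.28 (SE 0.17) or 77.7-fold. Among 17905 genes, 71 had a larger difference in this direction between these stages. The earlier step was smaller, with 6.42 ± 0.30 in BCP and 4.96 ± 0.12 in UNM, a difference of 1.46 (SE 0.17), and 2194 genes exceeded it. Over both steps, TCP minus UNM was 7.75 (SE 0.17). Most of the measured difference between TCP and UNM thus lay after the bicellular stage. As UNM stood at the edge of background, the earlier step may be larger than its value. After scaling by the hybridization controls TCP minus BCP was 5.05 and TCP minus UNM 6.25, still in the same direction.

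SWEET6A had signals of 10.82 and 10.94 in UNM, 10.29 and 10.56 in BCP and 6.48 and 6.33 in TCP. It was above the reporters' 95th percentile on all 6 arrays, so that its lowest stage was also measured. The BCP mean of 10.43 ± 0.19 and the UNM mean of 10.88 ± 0.08 differed by -0.46 (SE 0.15). These 2 stages did not overlap, but their nearest arrays were 0.26 apart, about the spread of the BCP arrays. In TCP the mean was 6.41 ± 0.10, against 10.43 ± 0.19 in BCP, a difference of -4.02 (SE 0.15) or 16.2-fold. A larger difference in this direction was found for 485 of 17905 genes. TCP minus UNM was -4.47 (SE 0.15). After scaling by the hybridization controls the differences were -5.25 for TCP minus BCP and -5.97 for TCP minus UNM. The largest steps of SWEET6A and SWEET5 thus lay in the same interval, between the bicellular and the tricellular stage, in opposite directions.

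SWEET11 had signals of 9.25 and 9.37 in UNM, 3.59 and 3.63 in BCP and 3.54 and 3.92 in TCP. Both UNM arrays were far above the reporters and all 4 later arrays were below their 95th percentile. BCP and TCP overlapped, so no order between them can be given. The mean was 3.61 ± 0.03 in BCP against 9.31 ± 0.09 in UNM, a difference of -5.70 (SE 0.16). Because the BCP signal lay in the background, the fold is known only as a bound: set against the reporters' 95th percentile, BCP was at least 12.6-fold lower than UNM and TCP at least 11.6-fold lower than UNM. TCP minus UNM was -5.58 (SE 0.16), or -7.07 on the scale of the hybridization controls.

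SWEET15 had signals of 6.53 and 7.03 in UNM, 3.25 and 3.27 in BCP and 3.33 and 4.37 in TCP. As for SWEET11, only the UNM arrays were above the reporters' 95th percentile. TCP replicate 2 was 1.04 above TCP replicate 1, the widest gap between replicates of any of the 4 genes, yet both values stayed in the background and above both BCP arrays. BCP minus UNM was -3.52 (SE 0.33), with means of 3.26 ± 0.02 in BCP and 6.78 ± 0.35 in UNM, and TCP minus UNM was -2.93 (SE 0.33), or -4.42 on the scale of the hybridization controls. Set against the reporters' 95th percentile, BCP was at least 2.18-fold lower than UNM and TCP at least 2.00-fold lower than UNM. The bounds are thus much lower than for SWEET11, whose UNM signal was further from background.

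SWEET11 and SWEET15 were above background in UNM alone, the stage in which the anther wall and tapetum markers also had their highest mean level. The mean level of the 11 anther wall and tapetum markers was 7.74 on both UNM arrays, 4.30 to 4.39 in BCP and 4.28 on both TCP arrays. By limma with Benjamini-Hochberg adjustment, 8 of the 11 fell in BCP against UNM, where 25.1% of all 17905 genes fell. The other 3, GAMYB, RAFTIN1 and PTC1, had differences of -0.81, -0.61 and -0.43. RAFTIN1 and PTC1 were in the background in every stage, and PTC1 had its highest mean in TCP. The falls included the tapetal lipid transfer protein genes C6 and C4, at -6.73 (SE 0.31) and -6.34 (SE 0.14), and CYP703A3, a P450 enzyme of pollen wall synthesis, at -5.27 (SE 0.13). All 3 were in the background in BCP, so that BCP is known to be at least 35.9-fold lower than UNM for C6, at least 32.0-fold for C4 and at least 4.81-fold for CYP703A3. C4, C6 and CP1, a cysteine protease, were below the reporters' 95th percentile on all BCP and TCP arrays. Of the 4 photosynthesis genes, which mark green anther tissue, 2 fell in BCP against UNM, CAB2R, a chlorophyll-binding protein, by 6.80 (SE 0.13) and LHCP by 1.34 (SE 0.30). Genes of the Rubisco small subunit did not, with BCP minus UNM at 0.31 (SE 0.18) for RBCS and 0.00 (SE 0.14) for RBCS1. RBCS rose in TCP against UNM, by 1.01 (SE 0.18), less than the 1.49 by which the hybridization controls differed. The other probe sets of RBCS did not pass in that comparison, at 0.46 and, with both stages in the background, 0.55 and -0.80. The part of anther wall RNA in the SWEET11 and SWEET15 signals was not tested.

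The markers did not all have the pattern of SWEET11. GAMYB, a regulator of anther development, had a mean of 9.17 ± 0.11 in UNM, 8.37 ± 0.17 in BCP and 4.49 ± 0.15 in TCP. It was the only 1 of the 11 that fell in TCP against BCP (-3.88, SE 0.15), the interval in which SWEET6A was also lower. Its probe set is of a kind shared by several transcripts. Of all genes 28.6% fell between these stages, and the other 10 markers were already in the background in BCP. A sign of RNA quality, the signal of the 3' minus the middle probe set of actin, was 3.06 to 3.15 in UNM, 1.81 to 1.93 in BCP and 1.90 to 1.91 in TCP. For GAPDH the same measure was 0.71 to 1.29 in UNM, 0.91 to 1.10 in BCP and 1.506 to 1.599 in TCP, so the genes differ in their order. The 25S ribosomal RNA probe set had 13.03 and 12.98 in UNM, 9.85 and 9.68 in BCP and 11.28 and 11.23 in TCP. That of 18S had 11.56 and 11.36 in UNM, 9.51 and 9.60 in BCP and 10.81 and 10.75 in TCP. The part of RNA quality in the SWEET signals was not tested.

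**Figure D2:**
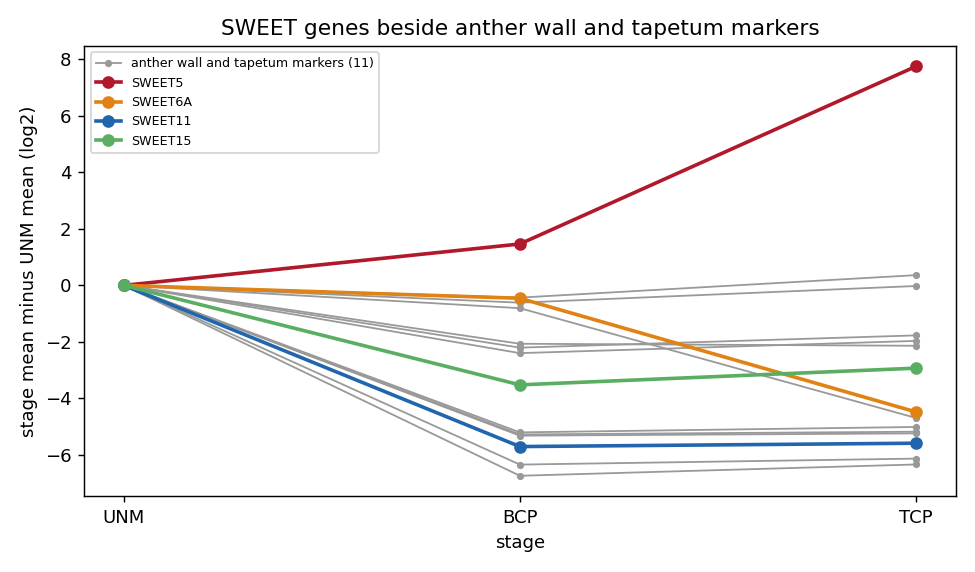
Stage mean minus UNM mean (log2) of SWEET5, SWEET6A, SWEET11 and SWEET15 in colour and of the 11 anther wall and tapetum markers in grey. SWEET11, at -5.70 in BCP, lies among the markers with the lowest values, while SWEET6A is near 0 in BCP and -4.47 in TCP.

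Genes whose pattern was nearest to each SWEET gene were sought among 2420 named genes, by the root mean square (RMS) difference over the 6 arrays after each gene was centred on its own mean. SWEET5 had few such genes: 22 of 17893 genes (0.123%) lay within an RMS difference of 0.5. The 4 nearest named ones were CSLD5, of the cellulose synthase-like D family (0.300), ILL2, of a family of enzymes that release auxin from amino acid conjugates (0.427), AT1 (0.457) and the copper transporter gene COPT2 (0.517). CSLD5 had signals of 2.99 and 2.98 in UNM, 4.49 and 4.69 in BCP and 10.33 on both TCP arrays. CSLD5, ILL2 and AT1 were in the background in BCP, where SWEET5 was above it. The pattern of SWEET6A was shared by 545 genes (3.05%) within the same distance. The nearest were GLU2, an endoglucanase (0.123), NCBP, a cap-binding protein of translation (0.134), GSA, an enzyme of tetrapyrrole synthesis (0.138), and the ribosomal protein gene RPL10A (0.138).

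For SWEET11, 127 genes (0.71%) were within 0.5. The nearest was PRX74, a peroxidase gene, with an RMS difference of 0.077 and signals of 8.79 and 8.76 in UNM, 3.20 and 3.22 in BCP and 3.12 and 3.41 in TCP. It was followed by TPP1, a trehalose-6-phosphate phosphatase of sugar signalling (0.137), the aquaporin gene PIP1-2 (0.184) and PSK5, a precursor of the peptide hormone phytosulfokine (0.193). For SWEET15, 360 genes (2.01%) were within 0.5. The nearest named ones were AOS, allene oxide synthase of jasmonate synthesis (0.262), MODD (0.298), RBOHB, an NADPH oxidase (0.310), and SCAMP4, a secretory carrier membrane protein (0.313). SWEET11, PRX74, TPP1 and PSK5, like SWEET15 and the 4 genes nearest to it, were in the background in BCP and TCP, so for them the measure compares levels in UNM with values that have no order. Likeness over 3 stages is a coarse measure, since many genes share a single step, and the counts differ with the size of that step.

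**Figure D3:**
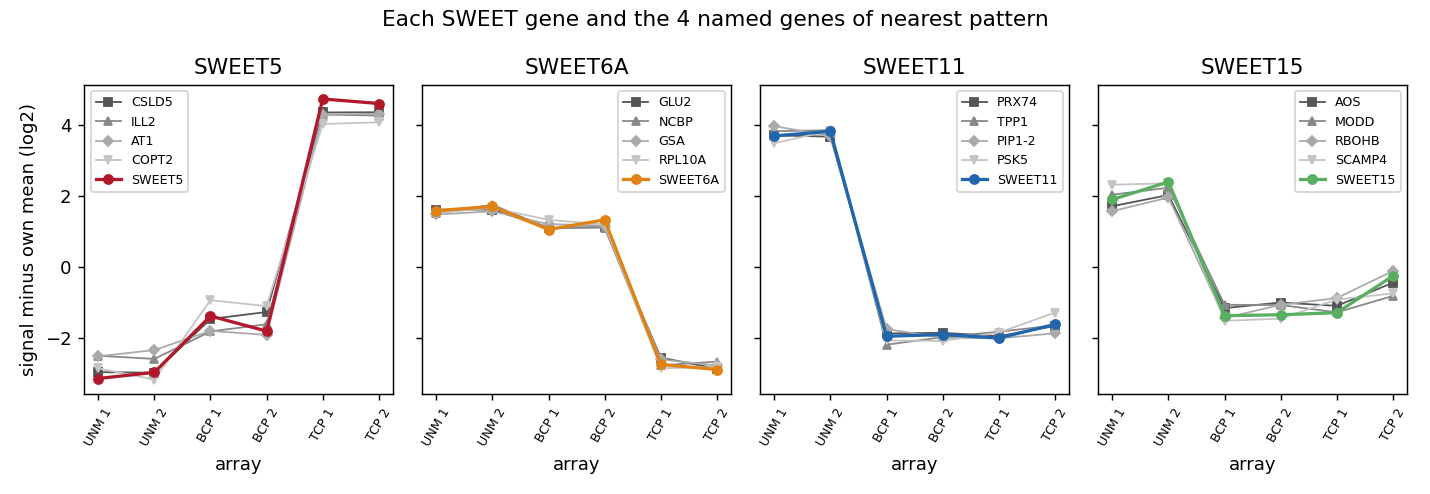
Signal of each SWEET gene (colour) and of the 4 named genes of nearest pattern (grey) on the 6 arrays, each minus its own mean (log2). PRX74 follows SWEET11 with an RMS difference of 0.077, while the 4 genes nearest to SWEET5 lie between 0.300 and 0.517 from it.

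Of the 8 measured SWEET genes that were not picked, 4 had a probe set above the reporters' 95th percentile on both UNM arrays, 3 on both BCP arrays and 2 on both TCP arrays. Those of TCP were SWEET4 and SWEET1A, whose other probe set was above that level on all 6 arrays. Over all 17905 genes, each by its probe set of highest mean, the shares above that level were 68.6% in UNM, 55.2% in BCP and 44.6% in TCP. The level itself was lower in UNM, and SWEET1B, above it in UNM alone, differed by only -0.20 (SE 0.14) between BCP and UNM. SWEET2B, SWEET12, SWEET14 and SWEET16 were above it on no array, and their highest signals were 5.05, 4.03, 4.22 and 3.23. SWEET12 and SWEET14 belong, with SWEET11 and SWEET15, to the sucrose clade.

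**Figure D4:**
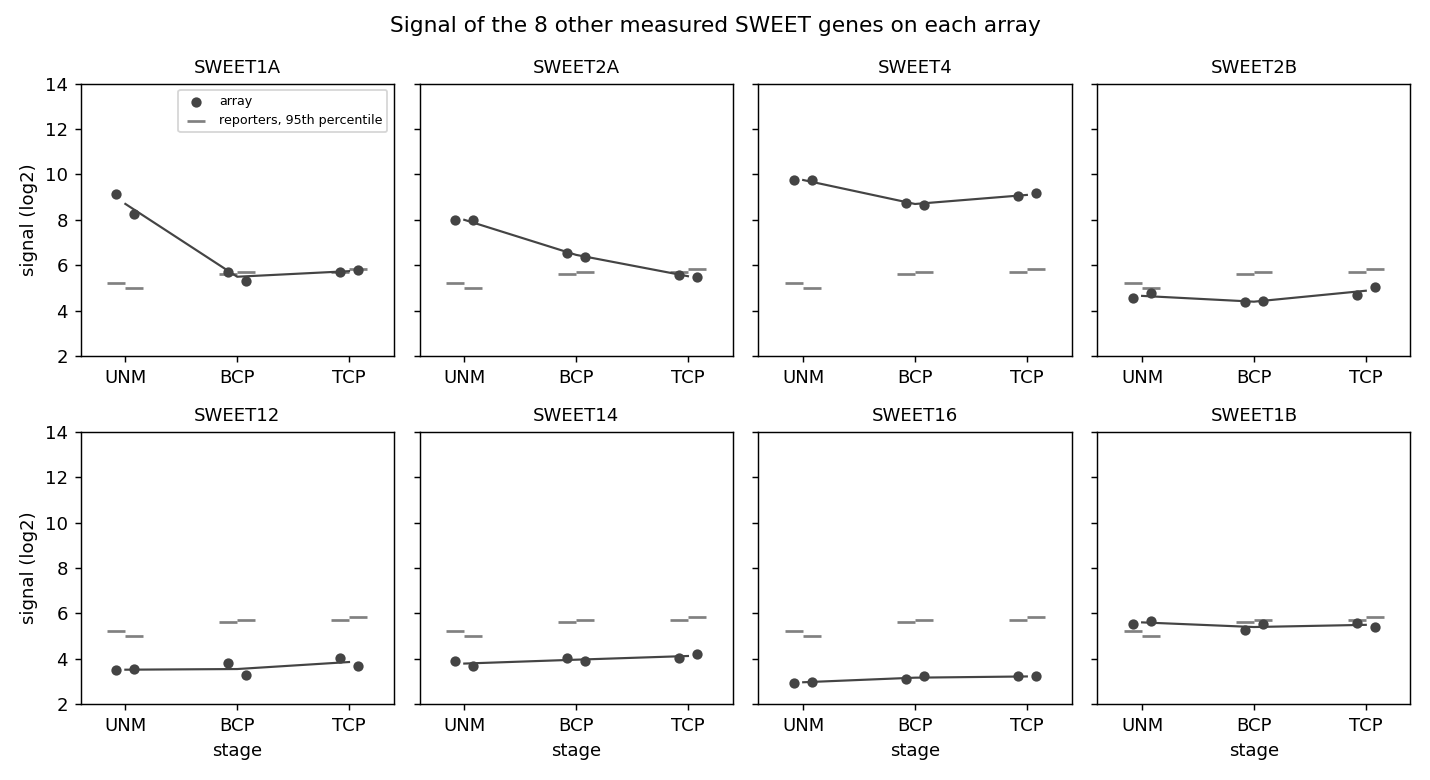
Signal (log2) of the 8 measured SWEET genes that were not picked, on each of the 6 arrays by stage; points are arrays, lines join stage means and grey dashes mark the reporters' 95th percentile. SWEET1A and SWEET2A are highest in UNM, SWEET4 is between 8.67 and 9.77, and SWEET2B, SWEET12, SWEET14 and SWEET16 lie under the dashes.

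The 8 genes were not picked for their pattern and were tested in the fit across all 57194 probe sets. As SWEET5, SWEET6A, SWEET11 and SWEET15 were taken out for their patterns, counts over the 8 do not stand for the whole family. By limma with Benjamini-Hochberg adjustment 3 of the 8 fell in BCP against UNM and 2 of the 8 in TCP against UNM, where 25.1% and 37.7% of all genes fell. None of the 8 rose in any comparison. Of all genes, 17.1% rose in BCP against UNM, 8.52% in TCP against BCP and 14.4% in TCP against UNM. With the values as deposited, none of the 8 fell in TCP against BCP, where 28.6% of all genes fell. The hybridization controls differed by 1.23 between these stages, more than any of the 8 genes did. The counts of falls in TCP thus depend on the scaling. The 8 genes are few, and 4 of them were above background on no array. The absence of such calls therefore does not set the family apart from all genes. At an unadjusted p under 0.05 with no minimum difference, 0 of the 8 were higher in BCP than in UNM, 2 were higher and 1 was lower in TCP than in BCP, and 0 were higher in TCP than in UNM. SWEET1A had signals of 5.70 and 5.29 on BCP arrays, against 9.13 and 8.28 on UNM arrays, and fell by 3.21 (SE 0.28, adjusted p = 9.05e-05 by limma). Its other probe set did not show this, with means of 5.91 ± 0.03 in BCP and 5.90 ± 0.01 in UNM, so the probe sets of SWEET1A disagree. SWEET2A had signals of 6.55 and 6.37 on BCP arrays against 8.002 and 8.007 on UNM arrays, a difference of -1.54 (SE 0.13, adjusted p = 7.08e-05 by limma). On TCP arrays SWEET2A had 5.57 and 5.47, below the reporters, and its TCP minus UNM difference was -2.48 (SE 0.13).

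SWEET4, a hexose carrier known from grain filling, was far above background in every stage. It had 9.75 and 9.77 in UNM, 8.73 and 8.67 in BCP and 9.03 and 9.17 in TCP. BCP minus UNM was -1.06 (SE 0.12, adjusted p = 0.000406 by limma), which was -0.89 and no longer past the minimum difference of 1 after centring on the 75th percentile. The 5 other SWEET genes that did not pass between BCP and UNM differed by between -0.25 and 0.20. Between TCP and BCP SWEET2A was the furthest from 0 at -0.94 (SE 0.13).

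Carriers and enzymes that act beside SWEET proteins were counted from lists of 14 further genes, chosen by symbol with earlier results of these data known. With the 8 other SWEET genes they make 22. By limma with Benjamini-Hochberg adjustment 4 of the 22 rose and 10 fell in BCP against UNM, with a median difference of -0.58, where 17.1% of all genes rose and 25.1% fell with a median of -0.12. In TCP against BCP 1 rose and 4 fell (median 0.03), where 8.52% of all genes rose and 28.6% fell with a median of -0.06. This last count depended on the scaling, with 3 rises and 3 falls when arrays were centred on the 75th percentile, 2 and 3 when they were quantile normalised again, and 1 and 14 when they were scaled by the hybridization controls. In TCP against UNM 3 rose and 9 fell (median -0.54), where 14.4% of all genes rose and 37.7% fell with a median of -0.34. On the scale of the hybridization controls 2 rose and 18 fell in that comparison. The shares of all genes are for the values as deposited and were not counted on that scale. The median over all probe sets moved there from 0.14 to -1.09 in TCP minus BCP and from 0.20 to -1.30 in TCP minus UNM.

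**Figure D5:**
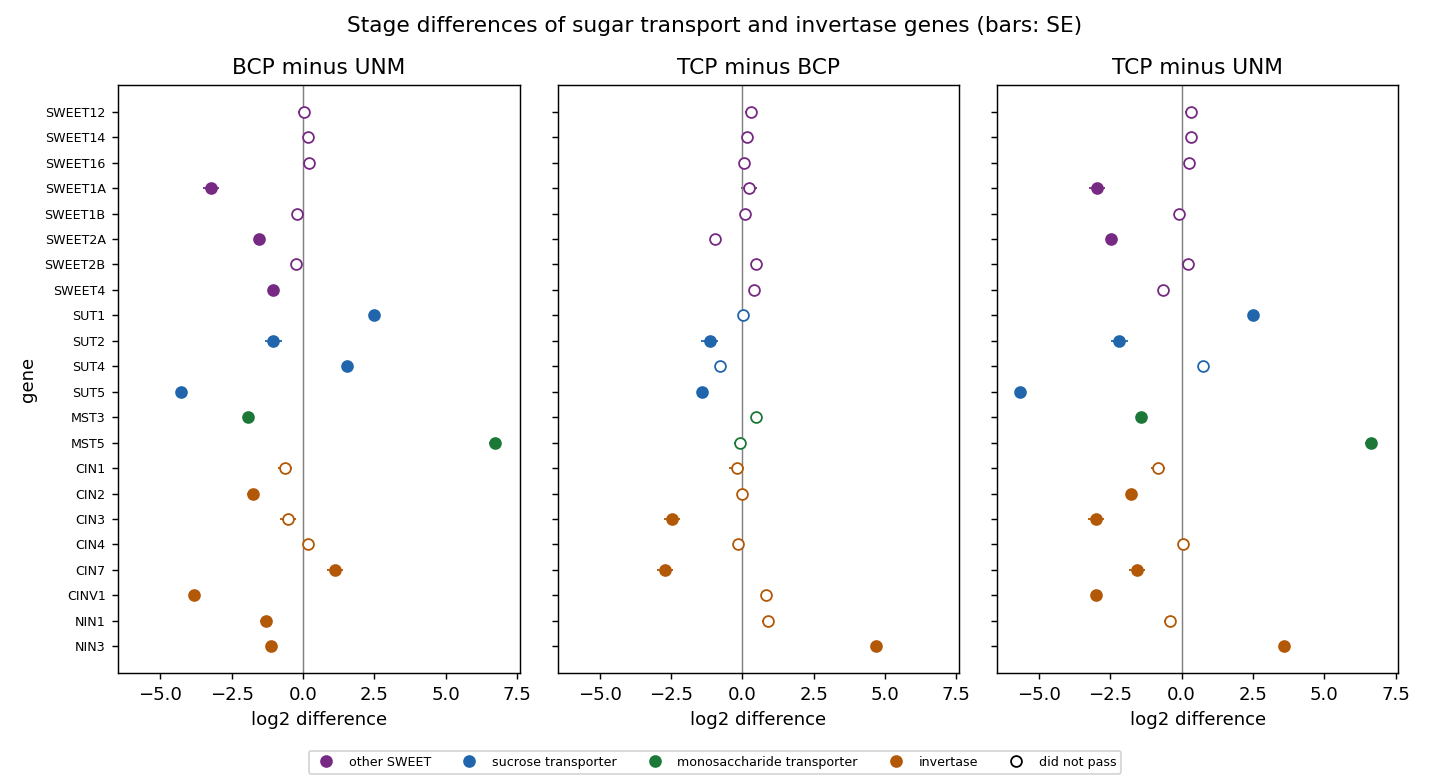
Log2 difference between stages, with its SE as a bar, of 22 sugar transport and invertase genes in the 3 comparisons. Filled points passed an adjusted p under 0.05 and a difference of at least 1, and open points did not. MST5 at 6.73 in BCP minus UNM and NIN3 at 4.69 in TCP minus BCP lie furthest to the right.

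Sucrose transporters of the SUT family use the proton gradient to take sucrose up. SUT1 had signals of 9.24 and 9.19 on BCP arrays against 6.86 and 6.62 on UNM arrays, and rose by 2.47 (SE 0.14). It stayed at 9.23 ± 0.03 in TCP, and TCP minus UNM was 2.49, or 0.99 and not past the minimum difference after scaling by the hybridization controls. SUT4 rose by 1.56 (SE 0.15) in BCP against UNM. SUT5 had 7.56 and 7.65 on BCP arrays against 11.97 and 11.79 on UNM arrays, a fall of 4.27 (SE 0.16), and 6.39 and 6.03 on TCP arrays, a further difference of -1.40 (SE 0.16) that was -0.95 after a repeated quantile normalisation. In the UNM to BCP interval, then, SUT1 and SUT4 were higher in BCP while SUT5, SWEET11 and SWEET15 were lower. SUT2 fell in both steps, by 1.03 (SE 0.30) and by 1.15 (SE 0.30), and was in the background in TCP, at least 1.53-fold lower than in BCP. The first call was lost without any 1 of the UNM or BCP arrays, with values of -1.20 to -0.87, and the second without either BCP array or without TCP replicate 1, when it was -0.66. With the mean of both SUT2 probe sets the values were -0.85 and -0.22, and neither passed. The other probe set of SUT2 had 5.18 ± 0.17 in TCP against 4.47 ± 0.07 in BCP.

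Monosaccharide transporters take up the hexoses that invertases release from sucrose. MST5 had signals of 10.14 and 10.73 on BCP arrays against 3.85 and 3.55 on UNM arrays. It rose by 6.73 (SE 0.22, adjusted p = 9.14e-07 by limma), and since UNM was in the background the ratio is at least 40.0-fold. In TCP MST5 was 10.34 ± 0.12, so its high signal came a stage before that of SWEET5. MST3 fell by 1.91 (SE 0.14) in BCP against UNM, with 5.77 ± 0.08 in BCP and 7.68 ± 0.12 in UNM. Its TCP minus UNM difference was -1.43 (SE 0.14), or -0.91 and not past the minimum difference after a repeated quantile normalisation.

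Of the 8 invertase genes 1 rose and 4 fell in BCP against UNM, where 17.1% of all genes rose and 25.1% fell. CINV1, a cytosolic invertase, had a mean of 5.15 ± 0.25 in BCP against 8.98 ± 0.07 in UNM, a difference of -3.83 (SE 0.18). The cell wall invertase gene CIN2 fell by 1.76 (SE 0.19). Both were in the background in BCP, and against the reporters' 95th percentile BCP was at least 10.02-fold lower than UNM for CINV1 and at least 1.30-fold lower for CIN2. NIN1, a neutral invertase, fell by 1.31 (SE 0.19). CIN7 rose by 1.12 (SE 0.28) in that comparison, a call lost without any 1 of the UNM or BCP arrays, when the value was 1.07 to 1.18, and on the scale of the hybridization controls, when it was 0.86. In TCP against BCP CIN7 and CIN3 fell, by 2.69 (SE 0.28) and by 2.46 (SE 0.28), and both were in the background in TCP, which was at least 3.34-fold lower than BCP for CIN7 and at least 1.24-fold lower for CIN3.

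NIN3, a neutral invertase, was the single gene of the 22 that rose in TCP against BCP with the values as deposited. It had signals of 12.46 on both TCP arrays against 7.93 and 7.60 on BCP arrays, a rise of 4.69 (SE 0.15, adjusted p = 1.03e-06 by limma), in the interval in which SWEET5 was 6.28 higher in TCP. Unlike SWEET5, NIN3 was lower in BCP than in UNM, where it had 8.88 on both arrays. That difference was -1.12 (SE 0.15), and -0.96 without BCP replicate 2 and -0.95 after centring on the 75th percentile, both under the minimum difference.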

How the data were processed

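The standard Affymetrix labelling started from 5 ug of total RNA for each of 6 samples, per the labels. The authors deposited log2 signals of RMA, a value for each probe set on each array, as the submitters' processing notes and the range of the values show. The sources used here do not give the RMA version or which arrays were normalised with each other. Of 57381 probe sets, 123 controls and 64 reporters stayed out of the tests. Genes were named through the platform's annotation and the RefSeq gene table of a Japonica assembly, whose coordinates were not used, and all 17905 genes with a probe set of their own were found there by gene ID. Protein and promoter sequences were not analysed here.

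All 6 arrays entered 1 limma fit with stage as factor (limma 3.58.1, R 4.3.3; residual degrees of freedom 3, prior 3.87), tested on simulated data first. A gene rose or fell if its two-sided p, after Benjamini-Hochberg adjustment over 57194 probe sets, was under 0.05 and its difference at least 1. The probe set with the highest mean represented a gene. A stage counted as in the background if both of its arrays were at or under the reporters' 95th percentile, and bounds were set against that level. The bounds are rounded to the digits shown, so a printed bound can lie slightly above its exact value. The members and lists were chosen with earlier results of these data known. Named are all SWEET genes, up to 4 genes passing per list, direction and comparison, the 4 genes nearest to each SWEET gene, and examples of markers. TMT and PMT matched by symbol, but their other names are those of other enzymes, so they were left out after their values had been seen. The p-values measure the spread between samples that the labels call biological replicates, and 2 arrays per stage limit the precision. The alternatives are given in the closing section.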

Additional observations from a re-analysis of the deposited data

How the results depend on the processing

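The 4 SWEET genes kept the direction of the 10 differences given for them under a repeated quantile normalisation, centring on the median or the 75th percentile, scaling by the hybridization controls and without each array in turn. Over the arrays left out, TCP minus BCP was 6.07 to 6.49 for SWEET5 and -4.16 to -3.88 for SWEET6A, and BCP minus UNM was -5.76 to -5.64 for SWEET11 and -3.77 to -3.27 for SWEET15. No other probe set of these genes could be tried, since each has 1. Of the 22 sugar transport and invertase genes, 14, 5 and 12 were called in BCP minus UNM, TCP minus BCP and TCP minus UNM. Without each array the counts were 11 to 14, 4 to 5 and 12 to 13. After scaling by the hybridization controls they were 15 in TCP minus BCP and 20 in TCP minus UNM, which follows from the shift of those controls. With no minimum difference 11 were called in TCP minus BCP, and with a minimum of 2 there were 5 in BCP minus UNM and 3 in TCP minus BCP. The replicate block gave 14, 5 and 12 calls and changed no call of a named gene. Deviations of arrays with the same number had a correlation of -0.05, 0.01 and -0.07, so the signals showed no shared effect of that number. Whether the samples were collected in pairs cannot be told from this. With TMT and PMT, an alternative chosen after seeing the data, the counts were 16, 6 and 12. Of 31 calls of named genes 15 were lost under at least 1 alternative, 14 of these with the minimum of 2, and 0 reversed. Where the cause of a lost call is not the alternative's own construction, it was not tested.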
